A study of Nannochloropsis oceanica with 15 samples.

Results

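The genes of intracellular trafficking and secretion in the oil-producing microalga Nannochloropsis oceanica, strain IMET1, were followed by RNA-seq over 48 h in cultures deprived of phosphate. The members were the 300 of 10434 genes that the deposited annotation places in the KOG functional class for intracellular trafficking, secretion and vesicular transport. The 4 genes that this class shares with the cytoskeleton class were left out. Membership came from sequence annotation alone, with no measured value, and 90 of the 300 carried another functional class as well, most often signal transduction (28 members) or nuclear structure (23 members). The choice of this class was made with earlier results of these data known. Gene names are those of the best-matching annotated protein, often from land plants, so a name records similarity and not a function shown in this alga.

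The 15 libraries fell into 5 groups of 3, sampled at 0, 6, 12, 24 and 48 h and lettered a to c. Cells were grown under continuous light in modified f/2 medium to the linear phase, collected, washed in axenic seawater and moved into f/2 medium without phosphate. All 15 libraries, those of 0 h included, are labelled as phosphate deprivation, and no library of a culture moved into complete medium was analysed here, so 0 h was the only baseline. Time since transfer, the washing and the lack of phosphate therefore cannot be told apart. Cultures were described as triplicate, but nothing says that one letter marks one culture across times, and the p-values measure the spread between libraries, which may be technical.

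In eukaryotic cells, proteins bound for the surface, the vacuole or export enter the endoplasmic reticulum (ER) through the Sec61 channel while they are made. COPII-coated vesicles carry them to the Golgi apparatus, COPI-coated vesicles return escaped ER residents and sort between Golgi cisternae, and clathrin with its adaptors forms vesicles at the trans-Golgi network and the plasma membrane. Rab GTPases and tethering complexes bring a vesicle to its target, and SNARE proteins fuse the membranes. Separate machineries carry proteins into the nucleus, mitochondria, plastids and peroxisomes. In Nannochloropsis and related algae the plastid lies inside an extra membrane that is continuous with the ER, so many plastid proteins also begin their route at Sec61.

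Library totals ran from 16649421 to 26349336 counts, and the 300 members together took 2.21% to 3.47% of a library. Of the members, 287 had enough counts to be tested, and 13 did not. Levels are given as CPM, counts scaled to a common library size with TMM factors, which compares one gene between libraries. FPKM, which also divides by gene length, is used where genes are set beside each other. A gene is called higher or lower when its edgeR quasi-likelihood p, adjusted by Benjamini-Hochberg over all 9321 tested genes, is under 0.05. A fold change is given as log2 with its standard error, and a mean with the SD over 3 libraries. Bulk RNA cannot tell a smaller share of cells from less RNA per cell, and each CPM is a share of all counts.

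More members were higher than lower at each of the 4 later times, and the number higher was largest at 12 h. At 6 h, 108 members were higher and 41 lower than at 0 h, or 37.6% and 14.3% of the tested members, against 24.7% and 25.7% of all tested genes. At 12 h, 129 were higher and 62 lower (44.9% and 21.6%), against 32.1% and 32.7% of all genes. At 24 h the counts were 91 higher and 43 lower (31.7% and 15.0%), against 25.2% and 20.8%, and at 48 h they were 104 higher and 43 lower (36.2% and 15.0%), against 26.3% and 23% of all genes. These 4 comparisons share the 3 libraries of 0 h and are not independent of each other. Libraries of the 2 times compared did not overlap, in either direction, in many genes. Against 0 h this held for 175 members at 6 h, 210 at 12 h, 180 at 24 h and 191 at 48 h, of 287 tested. Among all 9321 tested genes it held for 5709, 6602, 5717 and 5811. As shares, the members were close to all genes at each time, and these counts are not read as a trait of the class. Changes of at least 2-fold were also unequal: 80 members rose that far at 12 h and 12 fell, which is 27.9% and 4.18% of those tested, against 19.2% and 10.3% of all genes. The median log2 fold change of the tested members was 0.20 at 6 h, 0.34 at 12 h, 0.07 at 24 h and 0.16 at 48 h. The median over all genes was -0.03, -0.04, 0.03 and 0.01 at those times.

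**Figure D1:**
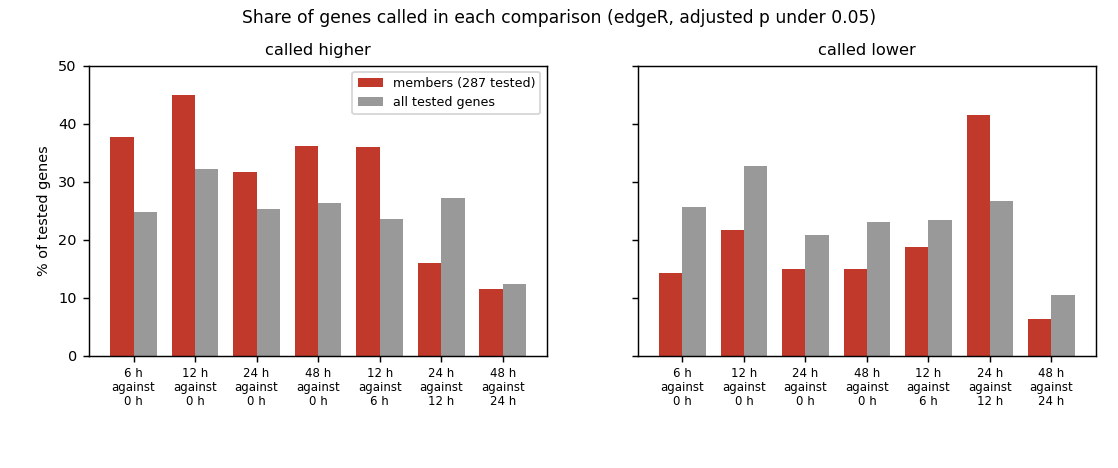
Share of tested genes called higher (left) and called lower (right) in each of the 7 comparisons, in percent, for the 287 tested members (red bars) and all 9321 tested genes (grey bars). The members' red bar for higher calls is tallest at 12 h against 0 h, at 44.9%, and their bar for lower calls is tallest at 24 h against 12 h, at 41.5%.

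Between successive times, more members were higher than lower at 12 h against 6 h, and more were lower than higher at 24 h against 12 h. Against 6 h, 103 members were higher at 12 h and 54 lower, or 35.9% and 18.8%, against 23.5% and 23.3% of all genes. Against 12 h, 46 were higher at 24 h and 119 lower, or 16% and 41.5%, against 27.2% and 26.6% of all genes, and 63 of the 119 fell by at least 2-fold. Between 24 and 48 h few members changed: 33 were higher and 18 lower at 48 h, or 11.5% and 6.27%, against 12.3% and 10.4% of all genes. These last counts moved by over 1.5 times when single libraries were left out: the number higher was 19 without library a of 24 h and 20 without library a of 48 h. The number lower was 10 without library c of 24 h, 8 without library a of 48 h and 10 without library c of 48 h.

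Over the 5 times, 227 members (79.1%) differed between times in the joint F-test, against 76% of all genes. The mean level was highest at 12 h in 121 members (42.2%), against 27.7% of all genes, and at 0, 6, 24 and 48 h in 60, 48, 28 and 30 members. Calls in one direction at all 4 later times were made for 60 members above baseline (20.9%), against 12.1% of all genes, and for 19 members below it (6.62%), against 11.4%. The members' share of all counts was 2.21% to 2.40% in the 0 h libraries and 3.39% to 3.47% in the 12 h libraries. The shares were 2.85% to 3.19% at 6 h, 2.52% to 2.59% at 24 h and 2.54% to 2.69% at 48 h. Across the members' log2 CPM, which are not independent of each other, libraries of one time correlated at 0.852 to 0.936 and libraries of different times at 0.670 to 0.931.

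**Figure D2:**
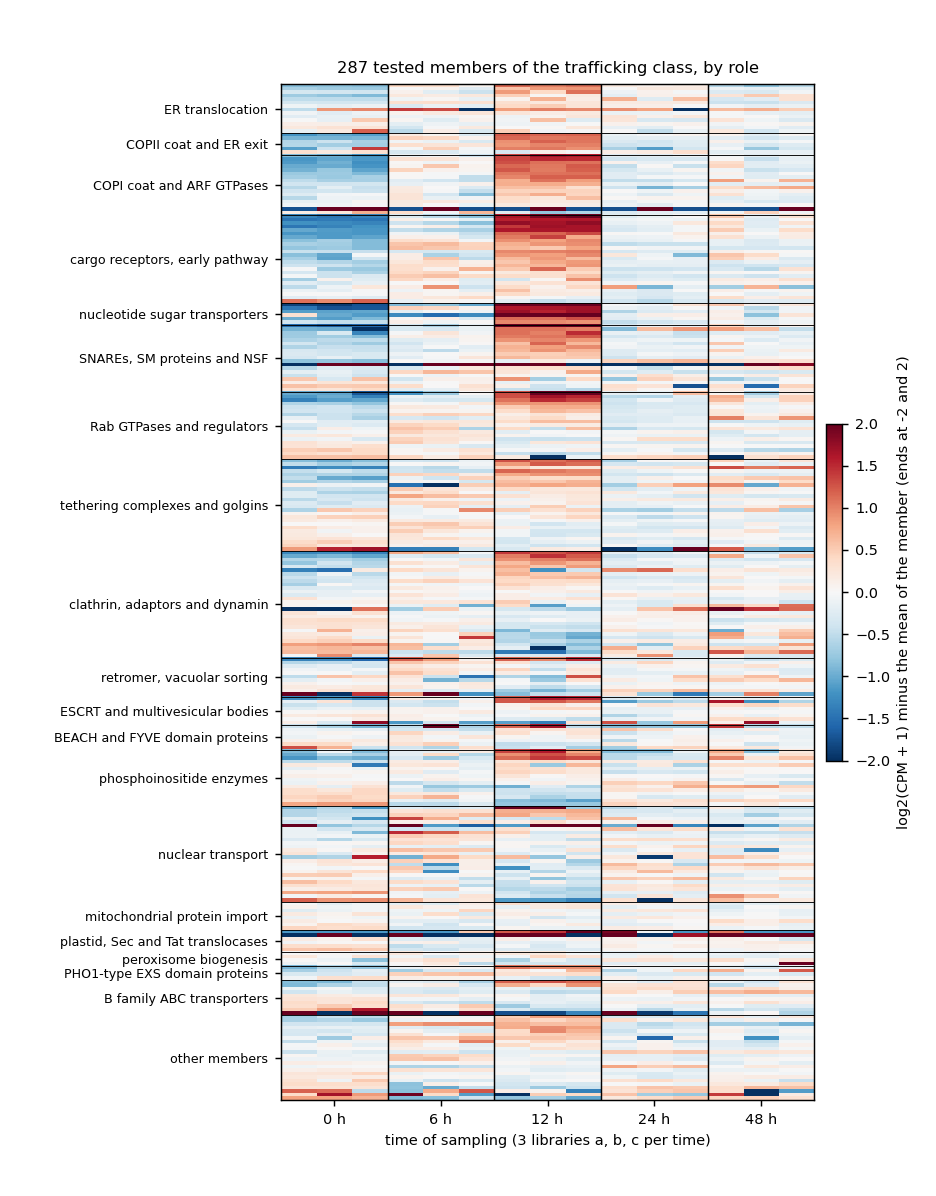
Level of each tested member in each of the 15 libraries, as log2(CPM + 1) minus the member's mean over the libraries (colour scale from -2 to 2). Members run down the page by role, and libraries run across by time, 3 at each of 0, 6, 12, 24 and 48 h. The red block at 12 h covers the coats, cargo receptors, nucleotide sugar transporters and most SNAREs, while nuclear transport is mixed or blue there.

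To describe the class, each member was given 1 of 19 roles in the pathway from its annotation, 220 by patterns in the description and the other 80 by hand, and members outside these roles were kept as a remainder. The roles were set with earlier results of these data known, so differences between them are descriptive only. At 12 h, 80 of the 287 tested members rose by at least 2-fold. By role these were 6 of 6 nucleotide sugar transporters, 4 of 6 COPII genes, 16 of 25 cargo receptors, 9 of 17 in COPI and ARF and 8 of 19 SNAREs. They were also 4 of 14 in ER translocation, 7 of 26 tethers, 5 of 19 Rabs and 5 of 30 in the clathrin role, with the rest spread over other roles and the remainder. The roles differ in size, and no test was made between them.

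At the entrance to the pathway, 14 tested members carry proteins into the ER or remove their signal peptides, and their calls were 5 higher against 1 lower at 6 h, 9 against 1 at 12 h, 7 against 1 at 24 h and 2 against 1 at 48 h. The higher calls were 35.7%, 64.3%, 50% and 14.3% of the role, against 24.7%, 32.1%, 25.2% and 26.3% of all genes. The lower calls were 7.14% at each time, against 25.7%, 32.7%, 20.8% and 23% of all genes. The gene for the alpha subunit of Sec61 (NO14G01770), the pore of the translocation channel, stood at 254, 260.1 and 255 CPM at 0 h and 605, 587 and 486 CPM at 6 h. Sec61 alpha then had 1020.0, 929 and 975 CPM at 12 h, 528, 492 and 512 CPM at 24 h and 307, 259.5 and 314 CPM at 48 h. The 12 h libraries were above those of every other time, and the 48 h libraries overlapped those of 0 h. The rise was 1.93 ± 0.09 on the log2 scale at 12 h (edgeR adjusted p = 6e-09), and the value at 48 h was 0.19 ± 0.09 (edgeR adjusted p = 0.088). The small gamma subunit of the same channel (NO01G02330) averaged 105 ± 12.2 CPM at 12 h and 37.5 ± 1.13 CPM at 0 h (log2 fold change 1.49 ± 0.10, edgeR adjusted p = 6.3e-08), and was called higher at all 4 later times. The catalytic subunit of signal peptidase (NO11G02580), the protease that cuts off signal peptides, was higher at 6 h (log2 fold change 0.70 ± 0.05, edgeR adjusted p = 6.8e-07), 12 h (log2 fold change 0.63 ± 0.05, edgeR adjusted p = 6.1e-07) and 24 h, but not at 48 h (log2 fold change -0.03 ± 0.05, edgeR adjusted p = 0.74). The signal recognition particle brings ribosomes to the membrane: of its 7 tested members with its receptor, 2 were higher and 1 lower at 12 h. A receptor subunit gene (NO07G04500) was not called at any time and had a log2 value of -0.44 ± 0.39 at 12 h, whose sign turned without library c of 0 h.

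Of the 6 tested genes of the COPII coat, which buds vesicles from the ER, 4 rose at 12 h and 1 fell. These were 66.7% and 16.7% of the role, against 32.1% and 32.7% of all genes. SAR1B (NO05G01600), the small GTPase that starts coat assembly, stood at 110.4, 102 and 102 CPM at 0 h and 207, 197 and 195 CPM at 6 h. SAR1B then had 303, 325 and 329 CPM at 12 h, 123, 129 and 137 CPM at 24 h and 147, 128 and 137 CPM at 48 h. Every later library was above every 0 h library, and the 12 h libraries were above all others. The log2 fold change was 0.93 ± 0.06 at 6 h (edgeR adjusted p = 3.2e-07), 1.61 ± 0.07 at 12 h (edgeR adjusted p = 2.5e-09) and 0.39 ± 0.06 at 48 h (edgeR adjusted p = 0.00032).

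Both genes of Sec24, the coat subunit that binds cargo, were highest at 12 h. Sec24-like CEF (NO25G01720) stood at 53, 58.2 and 56.5 CPM at 0 h and 139.5, 127 and 100.2 CPM at 6 h. This Sec24 gene then had 289, 276 and 279.5 CPM at 12 h, 111, 122 and 129 CPM at 24 h and 129, 106 and 126 CPM at 48 h, with the 12 h libraries again above all others (log2 fold change 2.33 ± 0.12, edgeR adjusted p = 8.8e-09 at 12 h). The other Sec24 gene (NO12G03950) averaged 251 ± 9.34 CPM at 12 h and 61.6 ± 0.808 CPM at 0 h (log2 fold change 2.03 ± 0.09, edgeR adjusted p = 3.6e-09). A gene matched to SEC13, an outer-coat subunit that is also part of the nuclear pore in yeast and animals, fell. This gene (NO23G00510) averaged 64 ± 9.52 CPM at 12 h and 81.4 ± 3.54 CPM at 0 h (log2 fold change -0.35 ± 0.10, edgeR adjusted p = 0.011), and was also lower at 6 and 48 h. The other SEC13 gene (NO26G00190), named here after its values were seen, averaged 269 ± 25.3 CPM at 12 h and 87.6 ± 6.70 CPM at 0 h (log2 fold change 1.62 ± 0.09, edgeR adjusted p = 2.3e-08). A SEC31 gene had no count in any library, which allows at most 0.114 to 0.180 CPM by counting error, and the SEC23 gene (NO06G04540) was not called at 12 h (log2 fold change 0.63 ± 0.49, edgeR adjusted p = 0.29).

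All 7 tested coatomer subunits were called higher at each of 12, 24 and 48 h and 6 of them at 6 h, with a median log2 fold change of 1.87 at 12 h. All 7 then fell between 12 and 24 h, as 26.6% of all genes did. Of these calls, that of NO06G00680 at 24 h was lost when any of 3 libraries was left out, and that of NO01G05350 at 48 h when any of 6 was left out or with no filter on low counts. Both genes were named after their values were seen. With the ARF GTPases and their regulators, the role had 17 tested members, whose calls were 9 higher against 0 lower at 6 h, 15 against 1 at 12 h, 9 against 1 at 24 h and 11 against 0 at 48 h, and 15 of the 17 were highest at 12 h. The higher calls were 52.9%, 88.2%, 52.9% and 64.7% of the role, against 24.7%, 32.1%, 25.2% and 26.3% of all genes. The lower calls were 0%, 5.88%, 5.88% and 0%, against 25.7%, 32.7%, 20.8% and 23%. Of all genes, 27.7% were highest at 12 h. Coatomer gamma-2 (NO15G02980), a subunit of the inner coat layer, stood at 186, 189 and 169 CPM at 0 h and 317, 309 and 304 CPM at 6 h. Gamma-2 then had 651, 669 and 671 CPM at 12 h, 267, 255 and 276 CPM at 24 h and 331, 267 and 314 CPM at 48 h. No library of a later time overlapped the 0 h libraries, and the 12 h libraries were highest (log2 fold change 1.87 ± 0.08, edgeR adjusted p = 2.3e-09 at 12 h). Coatomer epsilon-1 (NO07G04560), of the outer layer, averaged 254 ± 27.3 CPM at 12 h and 42.6 ± 4.59 CPM at 0 h (log2 fold change 2.58 ± 0.12, edgeR adjusted p = 4.7e-09).

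ARF GTPases recruit the COPI coat to membranes, and the members matched to ARF did not move together. The ADP-ribosylation factor gene NO08G03280 stood at 200.1, 217 and 202 CPM at 0 h and 546, 538 and 484 CPM at 6 h. This ARF gene then had 1137, 1283 and 1264 CPM at 12 h, 342, 358 and 360.1 CPM at 24 h and 457, 327 and 401 CPM at 48 h. Its 12 h libraries were above all others and no later library overlapped those of 0 h (log2 fold change 2.57 ± 0.11, edgeR adjusted p = 3e-09 at 12 h). The ARF1 gene NO11G03550 averaged 51.6 ± 10.4 CPM at 12 h and 97.7 ± 21.6 CPM at 0 h (log2 fold change -0.92 ± 0.23, edgeR adjusted p = 0.0034). Its neighbour by ID (NO11G03560, named after its values were seen) has the same match and rose (log2 fold change 2.23 ± 0.21, edgeR adjusted p = 1.2e-06), and reads may be split between them. A further ARF1 gene, NO06G03640, was higher at 12 h (log2 fold change 0.93 ± 0.17, edgeR adjusted p = 0.00036) and 48 h (log2 fold change 1.01 ± 0.17, edgeR adjusted p = 0.00033), and it too lies beside a gene with the same match.

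Cargo receptors and packaging factors of the early pathway showed 18 higher against 1 lower at 6 h, 21 against 1 at 12 h, 15 against 2 at 24 h and 17 against 1 at 48 h among 25 tested members, and 20 of them were highest at 12 h. Their median log2 fold change at 12 h was 1.43, and 21 fell between 12 and 24 h while 0 rose. The 12 h calls were 84% higher and 4% lower, against 32.1% and 32.7% of all genes. Of the role, 80% were highest at 12 h, against 27.7% of all genes, and 84% fell to 24 h, against 26.6%. All 5 transmembrane 9 proteins, Golgi and endosome membrane proteins that sort other membrane proteins in yeast, were higher at 12 h with a median of 2.73. Transmembrane 9 member 3 (NO10G02210) stood at 59.98, 54.6 and 59 CPM at 0 h and 123, 102 and 84.3 CPM at 6 h. Member 3 then had 472, 569.7 and 599 CPM at 12 h, 127, 139 and 153 CPM at 24 h and 219, 135 and 187 CPM at 48 h. The lowest 12 h library was above every library of the other times, and the 3 libraries of 48 h were spread widely (log2 fold change 3.24 ± 0.19, edgeR adjusted p = 2.4e-08 at 12 h).

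The 5 genes matched to protein disulfide-isomerase 5-4, a plant protein that joins a thioredoxin domain to a cargo receptor of the ER-Golgi route, were called higher at all 4 later times, though the call of NO24G00800, named after its values were seen, at 24 h was lost when any of 4 libraries was left out. The one with the largest rise (NO05G01090) stood at 20.7, 21.5 and 20.8 CPM at 0 h and 64.2, 60.7 and 51.3 CPM at 6 h. It then had 175, 181 and 184 CPM at 12 h, 55.5, 57.6 and 55.6 CPM at 24 h and 64.7, 49.1 and 59.2 CPM at 48 h. The 12 h libraries were above all the rest (log2 fold change 3.10 ± 0.11, edgeR adjusted p = 1.1e-09 at 12 h). Another of them (NO03G05330) averaged 232 ± 14.5 CPM at 12 h and 44.2 ± 0.655 CPM at 0 h (log2 fold change 2.39 ± 0.10, edgeR adjusted p = 3e-09), and its implied length varied by over 1.5-fold. A mannose-binding lectin gene (NO07G00220), of the family that carries glycoproteins out of the ER, averaged 279.7 ± 7.21 CPM at 12 h and 101 ± 0.555 CPM at 0 h (log2 fold change 1.47 ± 0.04, edgeR adjusted p = 6.3e-10). The p24 cargo receptors, 3 tested genes, were all higher at 6 and 12 h, as 24.7% and 32.1% of all genes were. HVA22-like protein k (NO21G01720), related to the proteins that curve ER membranes, had the highest mean FPKM of the class (339.8 over all libraries) and averaged 819.5 ± 43.4 CPM at 12 h and 299 ± 117 CPM at 0 h (log2 fold change 1.46 ± 0.32, edgeR adjusted p = 0.0016). Its implied transcript length differed by over 1.5-fold between libraries. Of 25 tested members in the role, 1 fell at 12 h, a gene with a Got1/Sft2-like domain (NO06G04040), a family of Golgi membrane proteins that aid vesicle fusion in yeast. It averaged 70.6 ± 7.2 CPM at 12 h and 190.2 ± 15.3 CPM at 0 h (log2 fold change -1.43 ± 0.10, edgeR adjusted p = 7.1e-08), and was lower at all 4 times.

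Nucleotide sugar transporters bring activated sugars into the Golgi lumen, where glycans are built. All 6 tested members were higher at 12 h and highest there, with a median log2 fold change of 2.78, and all 6 fell between 12 and 24 h. Among all genes, 32.1% were higher at 12 h, 27.7% were highest there and 26.6% fell between 12 and 24 h. A GDP-fucose transporter 1 gene (NO08G01620) stood at 3.85, 3.69 and 4.32 CPM at 0 h and 8.57, 9.09 and 7.74 CPM at 6 h. The transporter gene then had 86.7, 91.6 and 97.1 CPM at 12 h, 16.4, 16.1 and 21 CPM at 24 h and 24.7, 17.7 and 19.9 CPM at 48 h. The 12 h libraries were far above all the others (log2 fold change 4.53 ± 0.16, edgeR adjusted p = 1.1e-09 at 12 h), and this was the largest rise at 12 h among members that met the level set for naming. Its neighbour by ID, NO08G01610, has the same match and averaged 5.89 ± 4.10 CPM at 0 h, 2.68 ± 0.38 CPM at 6 h and 39.9 ± 0.766 CPM at 12 h. It was called higher at 12 h (log2 fold change 2.76 ± 0.43, edgeR adjusted p = 0.00011) and lower at 6 h (log2 fold change -1.13 ± 0.42, edgeR adjusted p = 0.04). That lower call was lost without library a of 0 h (log2 -0.39) and in 9 other alternatives, and reads may be split within the pair. A further gene with this match (NO10G00650) averaged 154 ± 4.98 CPM at 12 h and 15.1 ± 1.80 CPM at 0 h (log2 fold change 3.35 ± 0.15, edgeR adjusted p = 4.7e-09). The UDP-galactose/UDP-glucose transporter 7 (NO04G03510) had 98.9 ± 6.12 CPM at 12 h and 14.2 ± 0.348 CPM at 0 h (log2 fold change 2.80 ± 0.14, edgeR adjusted p = 7.4e-09). The GDP-mannose transporter GONST1 (NO02G01920) averaged 114 ± 2.30 CPM at 12 h and 43 ± 1.42 CPM at 0 h (log2 fold change 1.41 ± 0.07, edgeR adjusted p = 7e-09).

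**Figure D3:**
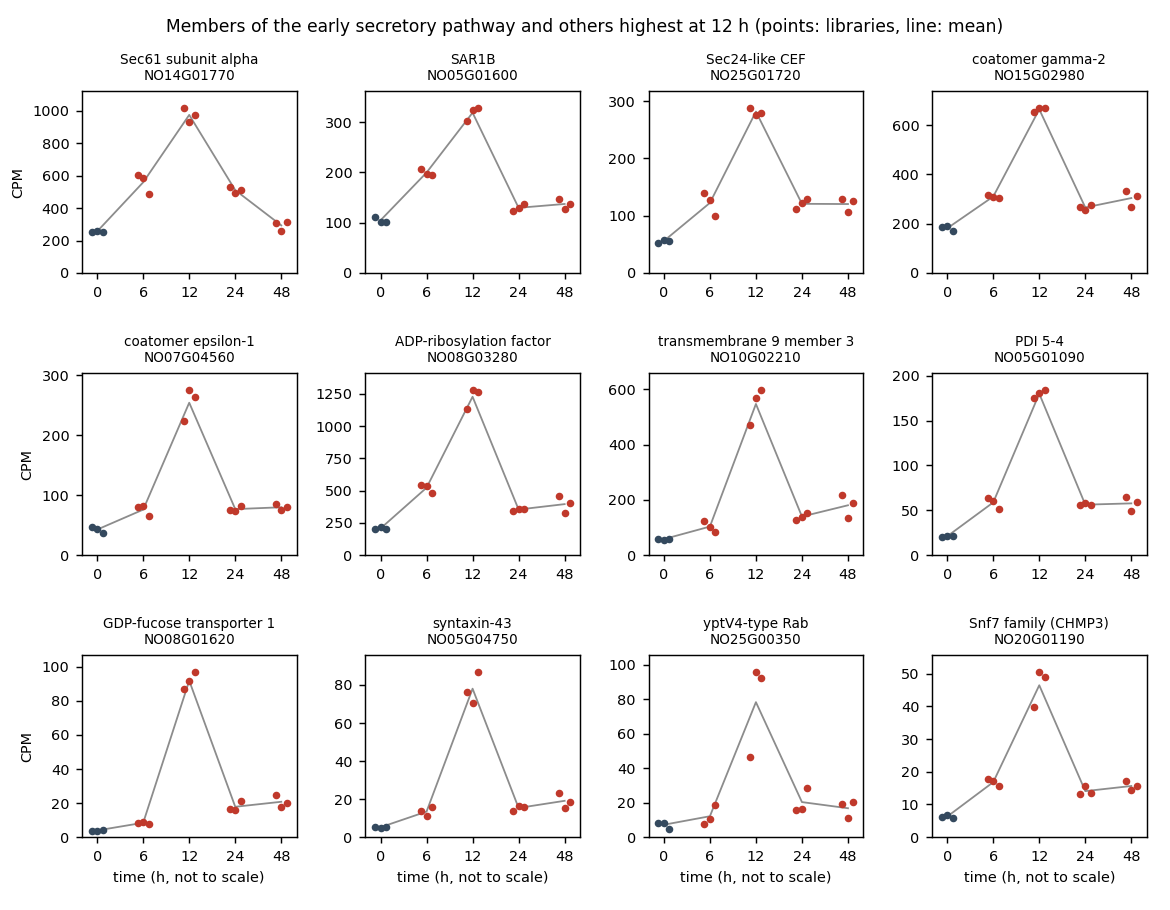
Level in CPM of 12 members in every library (points) with the mean of each time (line), over 0, 6, 12, 24 and 48 h spaced evenly. The axes differ between panels and start at 0. Dark points are the 0 h libraries and red points the later ones. In each panel the 3 libraries of 12 h lie above those of every other time, but the members shown were picked as highest at 12 h.

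Of 19 tested SNAREs and their partners, 14 rose and 2 fell at 12 h, 13 were highest at that time, and 12 fell between 12 and 24 h. The 12 h calls were 73.7% and 10.5% of the role, against 32.1% and 32.7% of all genes. Of the role, 68.4% were highest at 12 h, against 27.7% of all genes, and 63.2% fell to 24 h, against 26.6%. Syntaxin-43 (NO05G04750), named for a plant SNARE of the trans-Golgi network, stood at 5.43, 4.93 and 5.29 CPM at 0 h and 13.7, 11 and 15.8 CPM at 6 h. Syntaxin-43 then had 76.5, 70.8 and 86.9 CPM at 12 h, 14, 16.2 and 15.9 CPM at 24 h and 23.3, 15.4 and 18.7 CPM at 48 h. The 12 h libraries exceeded all others, and every later library exceeded those of 0 h (log2 fold change 3.90 ± 0.18, edgeR adjusted p = 4.7e-09 at 12 h). YKT61 (NO01G03510), a SNARE used at several steps of the pathway, averaged 778 ± 24 CPM at 12 h and 154 ± 60.9 CPM at 0 h (log2 fold change 2.34 ± 0.46, edgeR adjusted p = 0.0007), with values of 191, 187 and 83.7 CPM at 0 h. At 24 h it was also called higher (log2 fold change 1.66 ± 0.45, edgeR adjusted p = 0.0098), a call lost in a fit of only the 6 libraries compared. A syntaxin 5-type gene (NO27G00230), the SNARE for arrival at the Golgi, averaged 52.4 ± 3.69 CPM at 12 h and 13.6 ± 0.831 CPM at 0 h (log2 fold change 1.94 ± 0.09, edgeR adjusted p = 7.3e-09). VPS45 (NO20G00750), an SM protein that binds trans-Golgi syntaxins, averaged 283 ± 24.6 CPM at 12 h and 112 ± 5.83 CPM at 0 h (log2 fold change 1.34 ± 0.08, edgeR adjusted p = 2e-08). The R-SNARE of the VAMP72 family (NO26G01650), which in plants acts in fusion at the plasma membrane, fell: it stood at 159, 151 and 168 CPM at 0 h and 111, 113 and 148 CPM at 6 h. The VAMP72 gene then had 91.8, 93.4 and 85.1 CPM at 12 h, 155, 130.5 and 133 CPM at 24 h and 147, 128 and 146 CPM at 48 h. Its 12 h libraries were below those of every other time (log2 fold change -0.82 ± 0.11, edgeR adjusted p = 3.7e-05), and at 24 and 48 h it was not called.

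Rab GTPases mark membranes for tethering, and the 19 tested Rabs and regulators moved both ways, with 10 higher against 3 lower at 6 h, 10 against 5 at 12 h, 6 against 5 at 24 h and 9 against 4 at 48 h. The 12 h calls were 52.6% and 26.3% of the role, against 32.1% and 32.7% of all genes. A gene matched to RAB1BV (NO09G01320) stood at 72.8, 70.8 and 63.9 CPM at 0 h and 113, 108 and 129.9 CPM at 6 h. RAB1BV then had 205, 205 and 208 CPM at 12 h, 83.6, 89.8 and 88.7 CPM at 24 h and 131, 97 and 123 CPM at 48 h. Every later library was above the 0 h libraries (log2 fold change 1.57 ± 0.11, edgeR adjusted p = 7.7e-08 at 12 h). Another gene with this match (NO13G00650) averaged 24.8 ± 6.60 CPM at 48 h and 10.6 ± 1.91 CPM at 0 h (log2 fold change 1.23 ± 0.19, edgeR adjusted p = 0.0002). YPT1 (NO08G02140), of the Rab1 group that acts between the ER and the Golgi, and with the highest mean FPKM among the Rabs (223), averaged 202 ± 17.6 CPM at 6 h and 131 ± 5.26 CPM at 0 h (log2 fold change 0.62 ± 0.07, edgeR adjusted p = 8.8e-06). PRA1 family protein B5 (NO04G02980), whose family helps to place Rabs on membranes, averaged 99.8 ± 14.1 CPM at 12 h and 17.1 ± 2.05 CPM at 0 h (log2 fold change 2.54 ± 0.15, edgeR adjusted p = 3.4e-08). A TBC-domain GTPase activating protein (NO08G03420), a type that switches Rabs off, averaged 107 ± 4.61 CPM at 6 h and 55.5 ± 3.17 CPM at 0 h (log2 fold change 0.94 ± 0.06, edgeR adjusted p = 2.6e-07). A Rab11A gene (NO08G03460), beside another with the same match, had 72.6, 10.2 and 58 CPM at 12 h, with library b far below, and 96.5, 96.3 and 98.1 CPM at 0 h, and was not called (log2 fold change -1.05 ± 0.67, edgeR adjusted p = 0.19).

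A pair of genes matched to yptV4, a Rab2-type GTPase of green algae, moved in opposite directions. NO25G00350 stood at 8.46, 8.27 and 4.95 CPM at 0 h and 7.45, 10.5 and 18.5 CPM at 6 h. The same gene then had 46.6, 96.1 and 92.6 CPM at 12 h, 16, 16.4 and 28.8 CPM at 24 h and 19.2, 10.9 and 20.4 CPM at 48 h. All 12 h libraries were above the rest, though library a stood at 46.6 CPM, below 96.1 and 92.6 CPM in b and c (log2 fold change 3.44 ± 0.45, edgeR adjusted p = 2.4e-05 at 12 h). Its call at 24 h (log2 fold change 1.5 ± 0.42, edgeR adjusted p = 0.011) was lost without library c of 24 h (edgeR adjusted p = 0.051). NO26G01600 averaged 48.3 ± 3.27 CPM at 12 h and 66.4 ± 3.37 CPM at 0 h (log2 fold change -0.46 ± 0.11, edgeR adjusted p = 0.0032) and 34 ± 4.39 CPM at 48 h (log2 fold change -0.97 ± 0.11, edgeR adjusted p = 2.5e-05), and was lower at all 4 times. Its call at 6 h was lost in 9 of 24 alternatives. By FPKM at 12 h, NO26G01600 was still the more abundant of the pair, at 58.8 FPKM against 23.5 FPKM in NO25G00350.

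Tethers hold a vesicle at its target before fusion. Of 26 tested tethers and golgins, the calls were 12 higher against 2 lower at 6 h, 12 against 6 at 12 h, 8 against 6 at 24 h and 12 against 6 at 48 h. Calls at 12 h were 46.2% and 23.1% of the role, against 32.1% and 32.7% of all genes. The 4 exocyst genes, for the complex that tethers vesicles at the plasma membrane, had 3 higher and 0 lower at 12 h, and the 5 genes of the COG complex, which tethers within the Golgi, had 3 and 0. EXO70A1 (NO18G02120) stood at 9.04, 8.03 and 8.94 CPM at 0 h and 12.8, 12.5 and 15.5 CPM at 6 h. EXO70A1 then had 42.7, 38 and 41.8 CPM at 12 h, 10.4, 17.3 and 17.3 CPM at 24 h and 23.9, 15.6 and 20.5 CPM at 48 h. Its 12 h libraries were highest and its 0 h libraries lowest (log2 fold change 2.23 ± 0.20, edgeR adjusted p = 1.1e-06 at 12 h). The COG8-type gene (NO04G01290) averaged 72.5 ± 4.98 CPM at 12 h and 24.7 ± 1.48 CPM at 0 h (log2 fold change 1.55 ± 0.08, edgeR adjusted p = 1.5e-08). VPS53 A (NO13G00120), of the GARP tether that receives endosomal vesicles at the trans-Golgi network, averaged 110.3 ± 7.15 CPM at 12 h and 38.9 ± 0.209 CPM at 0 h (log2 fold change 1.5 ± 0.08, edgeR adjusted p = 1.7e-08).

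A gene with the domain of TRAPP subunit 2 (NO07G04480), part of the complex that activates Rab1 at the Golgi, was highest at 48 h. It stood at 73.3, 80.7 and 75.5 CPM at 0 h and 145, 130.5 and 172 CPM at 6 h. The TRAPP gene then had 268, 223 and 226 CPM at 12 h, 215, 219.7 and 241 CPM at 24 h and 476, 398 and 431 CPM at 48 h. Every 48 h library was above all others, and every 0 h library below all others (log2 fold change 2.51 ± 0.11, edgeR adjusted p = 6.4e-08 at 48 h, against log2 fold change 1.64 ± 0.11, edgeR adjusted p = 8.1e-08 at 12 h). Against 24 h it was higher at 48 h (log2 fold change 0.95 ± 0.11, edgeR adjusted p = 0.0001). VPS39-type gene NO19G02300, a subunit of the HOPS tether of the vacuole, averaged 47.8 ± 3.57 CPM at 24 h and 84.5 ± 8.03 CPM at 0 h (log2 fold change -0.82 ± 0.11, edgeR adjusted p = 0.00011). A vacuolar protein sorting gene of the role (NO16G01950) had libraries spread over 10.2, 19.8 and 460.5 CPM at 24 h and was not called at 12 h (log2 fold change -1.41 ± 1.12, edgeR adjusted p = 0.29).

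**Figure D4:**
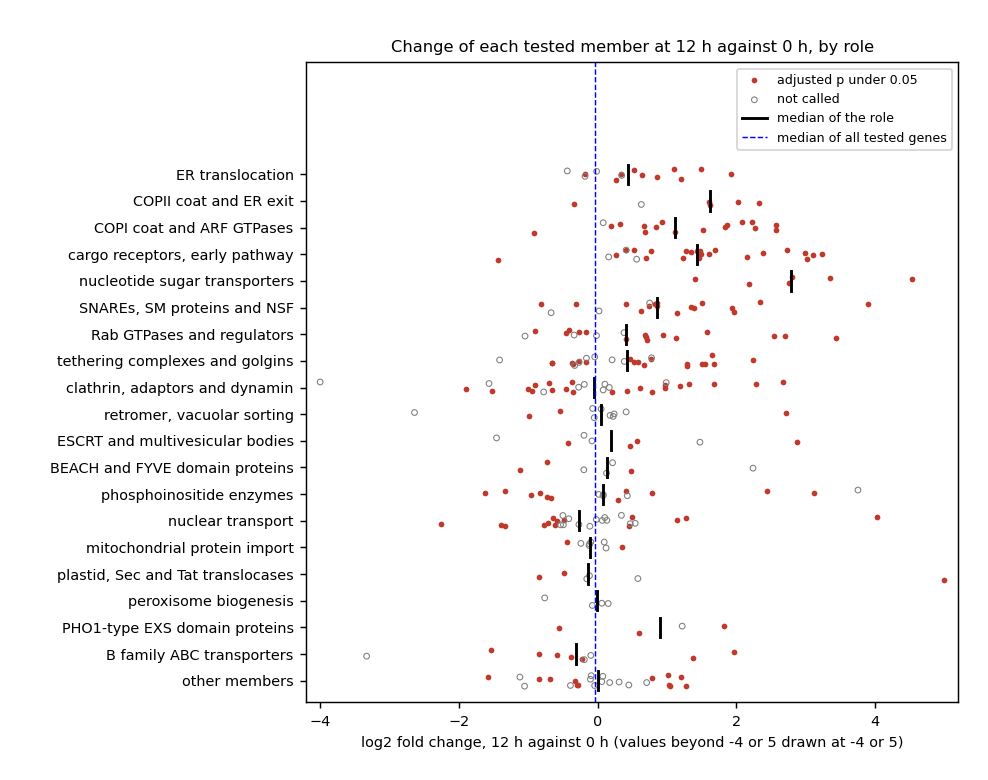
Log2 fold change at 12 h against 0 h of each tested member (points) by role, with the median of each role (black bar) and the median of all tested genes (dashed line, at -0.04). Filled red points have an edgeR adjusted p under 0.05 and open points do not. The medians of the COPII, COPI, cargo receptor and nucleotide sugar transporter roles lie above 1. Those of the B family ABC transporters (-0.31), nuclear transport (-0.27), the plastid, Sec and Tat translocases (-0.14), mitochondrial import (-0.11) and the clathrin role (-0.06) lie below the dashed line.

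Among 30 tested members of the clathrin step, with adaptors, EH domain proteins and dynamins, calls were 10 higher against 5 lower at 6 h, 11 against 10 at 12 h, 6 against 6 at 24 h and 11 against 5 at 48 h. At 12 h these were 36.7% and 33.3% of the role, near the 32.1% and 32.7% of all genes. The 14 subunits of AP adaptors, which link cargo to coats, had 6 higher and 5 lower at 12 h, or 42.9% and 35.7%. AP-1 sigma-1 (NO25G01680), of the trans-Golgi adaptor, stood at 19, 19.3 and 17.5 CPM at 0 h and 29.4, 27.8 and 34.7 CPM at 6 h. Sigma-1 then had 55.8, 59.4 and 63.6 CPM at 12 h, 23.8, 28.4 and 28.1 CPM at 24 h and 24, 21.7 and 22.9 CPM at 48 h. Every later library was above those of 0 h and 12 h was highest (log2 fold change 1.68 ± 0.10, edgeR adjusted p = 3.3e-08 at 12 h). The mu subunit of AP-2 (NO12G02710), the adaptor of endocytosis at the plasma membrane, was lower at all 4 times. It averaged 156 ± 10.1 CPM at 12 h and 213 ± 5.58 CPM at 0 h (log2 fold change -0.45 ± 0.06, edgeR adjusted p = 5.8e-05). At 48 h it averaged 129 ± 6.42 CPM (log2 fold change -0.72 ± 0.07, edgeR adjusted p = 3.8e-06). TOM1-like protein 9 (NO04G02890), which in plants binds ubiquitinated cargo, averaged 40.1 ± 2.20 CPM at 12 h and 80.3 ± 3.02 CPM at 0 h (log2 fold change -1.0 ± 0.07, edgeR adjusted p = 6.2e-08). The sigma subunit of AP-4 (NO02G03410), of an adaptor at the trans-Golgi network, averaged 42.4 ± 7.53 CPM at 12 h and 122 ± 6.99 CPM at 0 h (log2 fold change -1.53 ± 0.40, edgeR adjusted p = 0.0051). Its lower call at 24 h was lost when any of 5 libraries was left out, and its implied length varied by over 1.5-fold. An EH domain-containing protein 1 gene (NO23G01790) had no count at 12 h and 0.175, 1.35 and 0 CPM at 0 h, and was not called (edgeR adjusted p = 0.12).

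Dynamins are GTPases that cut membranes, some at vesicles and others at plastids and mitochondria. Of 7 tested dynamin-related genes, 0 were higher and 4 lower at 12 h, and ARC5, named for a plant dynamin of plastid division, was counted apart as a dynamin-like protein. The dynamin-related calls were 0% and 57.1%, against 32.1% and 32.7% of all genes. A dynamin-related protein 3B gene (NO18G01570), a type that divides mitochondria and peroxisomes in plants, stood at 218, 219.9 and 223 CPM at 0 h and 105, 98.5 and 98 CPM at 6 h. The 3B gene then had 52.3, 49.1 and 76 CPM at 12 h, 181, 162 and 114 CPM at 24 h and 334, 226 and 311 CPM at 48 h. The 12 h libraries were the lowest and the 48 h libraries the highest, and those of 48 h lay above those of 0 h without a call (log2 fold change -1.90 ± 0.20, edgeR adjusted p = 4.4e-06 at 12 h, and log2 fold change 0.40 ± 0.20, edgeR adjusted p = 0.12 at 48 h). Of the 4 tested genes matched to 3B, another (NO18G01630) also fell, with 216 ± 29.9 CPM at 12 h and 405 ± 10.8 CPM at 0 h (log2 fold change -0.91 ± 0.16, edgeR adjusted p = 0.00034). The remaining 3B genes, named after their values were seen, were not called at 12 h: NO18G01490 (log2 fold change 0.99 ± 1.15, edgeR adjusted p = 0.47) and NO18G01500 (log2 fold change 0.08 ± 0.13, edgeR adjusted p = 0.63). A 1D gene (NO18G01610), whose neighbour by ID has the same match, was called lower at 12 h (log2 fold change -0.94 ± 0.35, edgeR adjusted p = 0.034), and this call was lost when any of 4 libraries was left out. ARC5 (NO05G02360) stood at 161, 165 and 151 CPM at 0 h and 662, 604 and 386 CPM at 6 h. ARC5 then had 1042, 949.6 and 1031 CPM at 12 h, 345, 329 and 372 CPM at 24 h and 331, 280.0 and 317 CPM at 48 h. Every later library exceeded the 0 h libraries and the 12 h libraries were highest (log2 fold change 2.67 ± 0.16, edgeR adjusted p = 3.8e-08 at 12 h).

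Among 11 tested retromer and vacuolar sorting genes, calls were 4 higher against 1 lower at 6 h, 1 against 2 at 12 h, 3 against 0 at 24 h and 2 against 1 at 48 h. As shares, those of 12 h were 9.09% and 18.2%, against 32.1% and 32.7% of all genes. Retromer returns receptors from endosomes, and VPS13 proteins are bridges that carry lipids between membranes. A VPS13-type gene (NO04G03200) stood at 16.7, 16.9 and 14.1 CPM at 0 h and 102, 80.2 and 46.8 CPM at 6 h. This VPS13-type gene then had 101, 87.3 and 124 CPM at 12 h, 35.6, 35.6 and 40.2 CPM at 24 h and 39.9, 32.3 and 35.4 CPM at 48 h. All later libraries exceeded the 0 h libraries, and those of 6 and 12 h overlapped (log2 fold change 2.26 ± 0.24, edgeR adjusted p = 7.8e-06 at 6 h, log2 fold change 2.71 ± 0.24, edgeR adjusted p = 9.1e-07 at 12 h). A VPS13-type gene with a PH domain (NO02G02520) was lower at 12 h, with 78 ± 7.06 CPM at 12 h and 155 ± 10.6 CPM at 0 h (log2 fold change -0.99 ± 0.08, edgeR adjusted p = 5e-07). It was higher at 24 h, with 192 ± 13.9 CPM at that time (log2 fold change 0.30 ± 0.08, edgeR adjusted p = 0.0098). The gene with the highest mean FPKM of the role (NO26G01410, at 56.5 FPKM), the retromer subunit VPS29, was not called at 12 h (log2 fold change -0.07 ± 0.08, edgeR adjusted p = 0.43). The retromer subunit VPS35B (NO11G01060), which holds the complex together, averaged 99.5 ± 9.91 CPM at 12 h and 145 ± 4.46 CPM at 0 h (log2 fold change -0.54 ± 0.07, edgeR adjusted p = 2.1e-05). Another VPS13-type gene (NO04G00620) had 4.99, 6.73 and 7.12 CPM at 12 h and 88.3, 0.947 and 28.2 CPM at 0 h. It was not called at 12 h (log2 fold change -2.64 ± 1.30, edgeR adjusted p = 0.095).

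ESCRT proteins bud vesicles into endosomes for degradation in the vacuole. Of 8 tested, 3 rose and 1 fell at 12 h, or 37.5% and 12.5%, against 32.1% and 32.7% of all genes. A Snf7 family gene of the CHMP3 type (NO20G01190), a filament-forming subunit of ESCRT-III, stood at 6.24, 6.88 and 5.79 CPM at 0 h and 17.6, 17.1 and 15.7 CPM at 6 h. The Snf7 gene then had 39.9, 50.6 and 48.8 CPM at 12 h, 13.3, 15.6 and 13.4 CPM at 24 h and 17, 14.4 and 15.5 CPM at 48 h. The 12 h libraries were above all others (log2 fold change 2.88 ± 0.12, edgeR adjusted p = 3e-09 at 12 h). The gene matched to VPS32 (NO11G03350), the main filament subunit, was lower at 12 h and higher at 48 h than at 0 h. It averaged 42.9 ± 2.62 CPM at 0 h, 31.9 ± 2.89 CPM at 12 h and 52.3 ± 1.81 CPM at 48 h (log2 fold change -0.43 ± 0.08, edgeR adjusted p = 0.00037, and log2 fold change 0.29 ± 0.08, edgeR adjusted p = 0.0083). VPS2 (NO04G02700) averaged 39.4 ± 1.37 CPM at 48 h and 22.6 ± 0.986 CPM at 0 h (log2 fold change 0.80 ± 0.11, edgeR adjusted p = 6.9e-05). The ESCRT-I subunit VPS28 (NO19G02030) had 5.59, 4.43 and 16.3 CPM at 12 h and 14.4, 10.5 and 47.3 CPM at 0 h, with library c high at both times, and was not called at 12 h (log2 fold change -1.46 ± 0.78, edgeR adjusted p = 0.12).

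BEACH and FYVE domain proteins, large scaffolds and lipid-binding proteins of endosomes, had 1 higher and 2 lower of 7 at 12 h. Their shares were 14.3% and 28.6%, against 32.1% and 32.7% of all genes. BEACH domain protein B (NO09G00340) averaged 44.6 ± 2.05 CPM at 12 h and 74.3 ± 7.71 CPM at 0 h (log2 fold change -0.74 ± 0.15, edgeR adjusted p = 0.00075). The SPIRRIG gene (NO01G03550) was not called at 12 h (log2 fold change 0.22 ± 0.13, edgeR adjusted p = 0.18). A BEACH domain protein C2 gene (NO09G00190) had 7.32, 10.8 and 1.62 CPM at 12 h and 1.81, 1.40 and 0.965 CPM at 0 h and was not called (log2 fold change 2.24 ± 1.11, edgeR adjusted p = 0.098). A FYVE-type zinc finger gene (NO25G01570) was higher at 12 h (log2 fold change 0.48 ± 0.15, edgeR adjusted p = 0.016), a call lost without library c of 0 h. A class 3 lipase with a FYVE domain (NO14G02030) had 0 h libraries spread over 302, 199 and 90.9 CPM, and its lower call at 12 h (log2 fold change -1.12 ± 0.41, edgeR adjusted p = 0.031) was lost with a replicate block, in a fit of only the 6 libraries compared, and when any of 4 libraries was left out.

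Phosphoinositides are the lipids that give each membrane its identity. Of 16 tested kinases and phosphatases that write and erase them, the calls were 3 higher against 5 lower at 6 h, 5 against 6 at 12 h, 3 against 4 at 24 h and 3 against 3 at 48 h. Those at 12 h were 31.2% and 37.5% of the role, near the 32.1% and 32.7% of all genes. A gene matched to myotubularin-2 (NO19G00180), a phosphatase that removes the 3-phosphate, stood at 138, 145 and 147 CPM at 0 h and 54.5, 55 and 65.1 CPM at 6 h. Myotubularin-2 then had 46.2, 46.3 and 46.9 CPM at 12 h, 109, 98 and 94.8 CPM at 24 h and 78.4, 93.1 and 80.3 CPM at 48 h. The 0 h libraries were above all others and the 12 h libraries below all others (log2 fold change -1.63 ± 0.09, edgeR adjusted p = 1.5e-08 at 12 h). A gene matched to inositol polyphosphate 5-phosphatase 12 (NO05G00080), which removes the 5-phosphate, stood at 419, 450.3 and 440.0 CPM at 0 h and 298, 279 and 314 CPM at 6 h. The 5-phosphatase then had 184, 178 and 157 CPM at 12 h, 399.5, 375 and 411 CPM at 24 h and 448, 437 and 437 CPM at 48 h. It was lowest in the 12 h libraries (log2 fold change -1.33 ± 0.07, edgeR adjusted p = 8.9e-09 at 12 h) and not called at 24 or 48 h, where its libraries were near those of 0 h. The 5-phosphatase gene NO01G02720, beside a gene with the same match, had the highest mean FPKM of the role (110.3) and 998 ± 45.3 CPM at 24 h against 737 ± 64.8 CPM at 0 h (log2 fold change 0.44 ± 0.12, edgeR adjusted p = 0.01).

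The genes matched to phosphatidylinositol 3-kinase, the enzyme that makes the endosomal lipid PI3P, did not move together. A VPS34 gene (NO11G01400) averaged 78.6 ± 1.28 CPM at 12 h and 139.9 ± 3.93 CPM at 0 h and fell (log2 fold change -0.83 ± 0.05, edgeR adjusted p = 2.9e-08), with the 12 h libraries below and the 0 h libraries above those of every other time. The root isoform gene (NO08G00780) stood at 6.18, 7.68 and 7.14 CPM at 0 h and 11.9, 8.54 and 11.9 CPM at 6 h. This kinase gene then had 33.8, 41.7 and 38.9 CPM at 12 h, 10.02, 11.2 and 11.7 CPM at 24 h and 30.7, 18.1 and 23 CPM at 48 h, with 12 h highest and no later library down at the 0 h level (log2 fold change 2.44 ± 0.20, edgeR adjusted p = 3.6e-07 at 12 h). The other 2 genes with a 3-kinase match have the IDs next to it, so reads may be split among the 3. Of these, NO08G00760, matched to the nodule isoform and named after its values were seen, also rose at 12 h (3.45, 4.72 and 3.62 CPM, against 0.175, 0.648 and 0.504 CPM at 0 h, log2 fold change 3.12 ± 0.53, edgeR adjusted p = 0.00023). NO08G00770, matched to VPS34, had 3.64, 4.54 and 2.12 CPM at 12 h and 0, 0.748 and 0 CPM at 0 h, groups that did not overlap, and was not called (log2 fold change 3.75 ± 1.72, edgeR adjusted p = 0.074). Without library b of 0 h it was called higher. By FPKM, NO11G01400 was the more abundant at 0 h (31.7 against 1.54 FPKM), and at 12 h they had 17.9 and 8.42 FPKM.

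**Figure D5:**
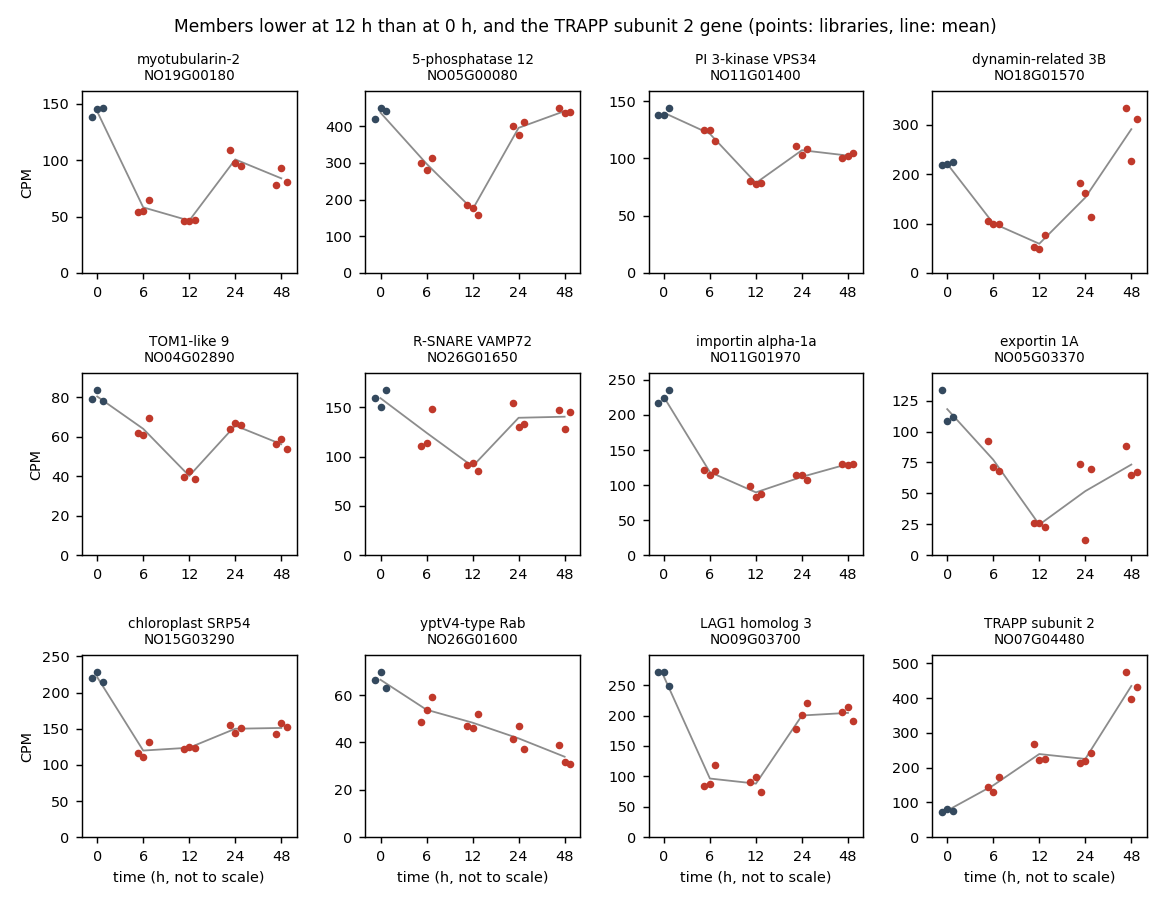
Level in CPM of 12 members in every library (points) with the mean of each time (line), over 0, 6, 12, 24 and 48 h spaced evenly, with axes that start at 0 and differ between panels. Dark points are the 0 h libraries and red points the later ones. The first 11 panels were called lower at 12 h than at 0 h, and the last, TRAPP subunit 2, was highest at 48 h.

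Of 27 tested carriers to and from the nucleus, the calls were 8 higher against 3 lower at 6 h, 5 against 9 at 12 h, 6 against 3 at 24 h and 4 against 6 at 48 h. At 12 h these were 18.5% higher and 33.3% lower, against 32.1% and 32.7% of all genes, and among the 19 importins and exportins 2 rose and 9 fell at 12 h. Importin alpha-1a (NO11G01970), an adaptor that binds nuclear localisation signals, stood at 216, 224 and 236 CPM at 0 h and 122, 114 and 120.0 CPM at 6 h. Importin alpha-1a then had 98.2, 83.1 and 87.2 CPM at 12 h, 114, 114 and 107 CPM at 24 h and 130.4, 129 and 130.4 CPM at 48 h. The 0 h libraries were above and the 12 h libraries below all others (log2 fold change -1.33 ± 0.06, edgeR adjusted p = 6.4e-09 at 12 h). A gene matched to importin alpha-1b (NO02G02350) stood at 47.1, 50.1 and 51 CPM at 0 h and 86.1, 89.3 and 88.3 CPM at 6 h. Importin alpha-1b then had 119, 118 and 122 CPM at 12 h, 57.3, 56.7 and 62.5 CPM at 24 h and 64.6, 57.3 and 60.2 CPM at 48 h. Its 12 h libraries were highest (log2 fold change 1.27 ± 0.06, edgeR adjusted p = 5.1e-09 at 12 h). Another gene with that match (NO06G01700), named after its values were seen, fell (log2 fold change -0.65 ± 0.17, edgeR adjusted p = 0.0049).

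Exportin 1A (NO05G03370), which carries proteins with nuclear export signals, averaged 24.7 ± 1.95 CPM at 12 h and 118 ± 13.7 CPM at 0 h (log2 fold change -2.26 ± 0.48, edgeR adjusted p = 0.0012). At 24 h its libraries stood at 73.7, 12.3 and 69.5 CPM, so that library b alone was low. Its neighbour by ID has the same match, and reads may be split between them. Ran-binding protein 1 (NO27G00770), a regulator of the Ran GTPase that sets the direction of transport, averaged 192 ± 14.8 CPM at 6 h and 96 ± 6.05 CPM at 0 h (log2 fold change 1.0 ± 0.10, edgeR adjusted p = 6e-06). At 12 h it averaged 213 ± 19.1 CPM (log2 fold change 1.15 ± 0.10, edgeR adjusted p = 8.8e-07). An importin-like gene (NO01G01110) was higher at 6 h (137 ± 40.3 CPM at 6 h and 48 ± 13.1 CPM at 0 h, log2 fold change 1.52 ± 0.28, edgeR adjusted p = 0.0006) and not at the later times. Nuclear transport factor 2A (NO07G01890), the importer of Ran, stood at 69.6, 69.4 and 3.37 CPM in libraries a, b and c of 12 h and at 2.68, 3.84 and 2.22 CPM at 0 h. Libraries a and b were high and library c lay within the range of 0 h, so the call (log2 fold change 4.02 ± 0.80, edgeR adjusted p = 0.00077) rests on a and b.

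Genes of protein import into mitochondria had 0 higher against 3 lower at 6 h, 1 against 1 at 12 h, 1 against 2 at 24 h and 0 against 1 at 48 h among 8 tested. Shares at 6 h were 0% and 37.5%, against 24.7% and 25.7% of all genes. At 12 h they were 12.5% and 12.5%, against 32.1% and 32.7%. At 24 h they were 12.5% and 25%, against 25.2% and 20.8%, and at 48 h 0% and 12.5%, against 26.3% and 23%. TIM44-2 (NO17G01880), which docks the import motor on the inner membrane, stood at 127, 118 and 122 CPM at 0 h and 71.7, 73.5 and 75.2 CPM at 6 h. TIM44-2 then had 97.4, 86.5 and 86 CPM at 12 h, 105, 102 and 96.4 CPM at 24 h and 86.2, 91.7 and 84.9 CPM at 48 h. The 0 h libraries were highest and the 6 h libraries lowest (log2 fold change -0.73 ± 0.06, edgeR adjusted p = 1e-06 at 6 h). TIM22-4 (NO08G02270), the channel for carrier proteins in that membrane, was lower at 6 h (log2 fold change -0.32 ± 0.09, edgeR adjusted p = 0.012), a call lost without library a of 0 h. TOM40-2 (NO03G02680), the pore of the outer membrane, was higher at 12 h (log2 fold change 0.35 ± 0.09, edgeR adjusted p = 0.0043). TIM10 (NO20G01170), a chaperone between the membranes, was not called at 12 h (log2 fold change 0.09 ± 0.13, edgeR adjusted p = 0.53).

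The 6 tested members of plastid, Sec and Tat translocation, a mitochondrial OXA1 gene among them, had 0 higher against 3 lower at 6 h, 1 against 2 at 12 h, 0 against 2 at 24 h and 0 against 2 at 48 h. The 2 lower calls at 12, 24 and 48 h were this mitochondrial gene and the chloroplast SRP54 gene. Shares of the role at 6 h were 0% and 50%, against 24.7% and 25.7% of all genes. At 12 h they were 16.7% and 33.3%, against 32.1% and 32.7%. At 24 and 48 h they were 0% and 33.3%, against 25.2% and 20.8%, and 26.3% and 23%. The chloroplast SRP54 gene (NO15G03290), part of the particle that delivers light-harvesting proteins to the thylakoid in plants, stood at 221, 229 and 215 CPM at 0 h and 117, 111 and 132 CPM at 6 h. SRP54 then had 123, 125 and 123 CPM at 12 h, 155, 145 and 151 CPM at 24 h and 143, 158 and 153 CPM at 48 h. The 0 h libraries were above all others, and the gene was lower at all 4 times (log2 fold change -0.89 ± 0.07, edgeR adjusted p = 5e-07 at 6 h). An OXA1 gene (NO17G00280), an insertase of the inner mitochondrial membrane, was also lower at all 4 times and averaged 33.1 ± 2.57 CPM at 6 h and 54.9 ± 0.835 CPM at 0 h (log2 fold change -0.73 ± 0.08, edgeR adjusted p = 1.2e-05). Its call at 24 h was lost in 11 of 24 alternatives and that at 48 h in 2. Chloroplast FtsY (NO01G04120), the SRP receptor, was lower at 6 h (log2 fold change -0.43 ± 0.10, edgeR adjusted p = 0.0038). The gene matched to ALBINO3 (NO04G01950), a thylakoid insertase, had 4.24, 5.12 and 19.5 CPM at 12 h and no count at 0 h. Its higher call at 12 h (edgeR adjusted p = 0.034) was lost without any of the 3 libraries of 0 h or without library c of 12 h.

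The 4 peroxisome biogenesis genes had 0 higher against 1 lower at 6 h, 0 against 0 at 12 h, 1 against 0 at 24 h and 2 against 1 at 48 h. Shares at 6 h were 0% and 25%, against 24.7% and 25.7% of all genes. At 12 h they were 0% and 0%, against 32.1% and 32.7%. At 24 h they were 25% and 0%, against 25.2% and 20.8%, and at 48 h 50% and 25%, against 26.3% and 23%. PEX7 (NO05G00880), an import receptor, was higher at 24 h (46.6 ± 0.605 CPM at 24 h and 32.2 ± 9.26 CPM at 0 h, log2 fold change 0.54 ± 0.19, edgeR adjusted p = 0.04), a call lost in 11 of 24 alternatives, 9 of which leave out 1 library. PEX19-1 (NO02G04750), a chaperone for peroxisomal membrane proteins, was lower at 48 h (31.3 ± 0.758 CPM at 48 h and 40.1 ± 4.52 CPM at 0 h, log2 fold change -0.36 ± 0.13, edgeR adjusted p = 0.033), a call lost when any of 5 libraries was left out. The calls of PEX19-1 at 6 h and of PEX7 at 48 h were lost in 16 and 12 of 24 alternatives. PEX14 (NO16G00410), the docking protein, was called at none of the 4 times. PEX3-2 (NO12G01910), which anchors PEX19, was called higher at 48 h (log2 fold change 2.51 ± 0.91, edgeR adjusted p = 0.039), but its libraries of 48 h stood at 0.646, 0.579 and 7.40 CPM and only library c was high. That call was lost in 12 of 23 alternatives, and without library c of 48 h the log2 value was 0.28.

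The class also held 4 genes with the EXS domain of PHO1, a plant phosphate exporter that cycles through the Golgi. Their calls differed. PHO1 homolog 7 (NO05G03150) stood at 13.9, 17.8 and 15.5 CPM at 0 h and 25.5, 28.8 and 28.3 CPM at 6 h. Homolog 7 then had 58.9, 54.2 and 53.6 CPM at 12 h, 28, 25.9 and 26.7 CPM at 24 h and 24.8, 20.9 and 25.4 CPM at 48 h. Every later library was above those of 0 h and the 12 h libraries were highest (log2 fold change 1.82 ± 0.10, edgeR adjusted p = 2.2e-08 at 12 h). PHO1-2 (NO26G01790) stood at 60.6, 59.2 and 64.1 CPM at 0 h and 104, 110.4 and 117 CPM at 6 h. PHO1-2 then had 92.4, 89.5 and 95.4 CPM at 12 h, 64.5, 61.4 and 60.3 CPM at 24 h and 57.3, 65 and 60.5 CPM at 48 h. It was highest at 6 h (log2 fold change 0.85 ± 0.06, edgeR adjusted p = 5.5e-07), and its libraries of 24 and 48 h overlapped those of 0 h. The gene annotated PHO1 (NO17G01230), at 31.1 FPKM the most abundant of the 4, averaged 159 ± 20.5 CPM at 12 h and 234 ± 37.4 CPM at 0 h (log2 fold change -0.55 ± 0.12, edgeR adjusted p = 0.0012). PHO1 homolog 4 (NO11G00580) had low levels, with 3.11, 1.64 and 4.86 CPM at 48 h and 0.583, 0.897 and 1.22 CPM at 0 h (log2 fold change 1.82 ± 0.53, edgeR adjusted p = 0.013), a call lost without library a of 0 h or library c of 48 h.

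B family ABC transporters, membrane pumps driven by ATP, had 1 higher against 3 lower at 6 h, 2 against 5 at 12 h, 4 against 4 at 24 h and 3 against 4 at 48 h among 10 tested. Shares at 6 h were 10% and 30%, against 24.7% and 25.7% of all genes. At 12 h they were 20% and 50%, against 32.1% and 32.7%. At 24 h they were 40% and 40%, against 25.2% and 20.8%, and at 48 h 30% and 40%, against 26.3% and 23%. A gene for member 25 (NO07G03580), in plants a mitochondrial exporter, stood at 37.6, 36.4 and 48.6 CPM at 0 h and 58.8, 55.9 and 42.6 CPM at 6 h. Member 25 then had 158, 167 and 152 CPM at 12 h, 66.2, 56.8 and 84.3 CPM at 24 h and 62.5, 51.9 and 83.9 CPM at 48 h. Its 12 h libraries were above all others, and those of 6 h overlapped 0 h (log2 fold change 1.96 ± 0.20, edgeR adjusted p = 3.4e-06 at 12 h). Another member 25 gene (NO05G04460), of the 6 tested, was highest at 48 h (54.5 ± 1.98 CPM at 48 h and 28.4 ± 2.63 CPM at 0 h, log2 fold change 0.94 ± 0.11, edgeR adjusted p = 2.2e-05). The gene matched to a multidrug resistance protein (NO26G01810) stood at 325, 413 and 706 CPM at 0 h and 272, 239.7 and 292 CPM at 6 h. The resistance protein gene then had 186, 155 and 158 CPM at 12 h, 212, 158 and 210.2 CPM at 24 h and 157, 178 and 162 CPM at 48 h. All later libraries were below those of 0 h (log2 fold change -1.54 ± 0.23, edgeR adjusted p = 9.3e-05 at 12 h), and its implied length varied by over 1.5-fold. Member 28 (NO20G02370) was lower at 6 h (log2 fold change -0.76 ± 0.08, edgeR adjusted p = 6.9e-06) and 12 h. Member 26 (NO15G02060) had libraries far apart within a time, with 859.8, 40.8 and 1096 CPM at 0 h and 2229, 44.1 and 1996 CPM at 6 h, and was not called in any comparison with 0 h.

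Among the 24 tested members outside these roles, 6 were higher and 6 lower at 12 h, or 25% and 25%, against 32.1% and 32.7% of all genes. A LAG1 homolog 3 gene (NO09G03700), of the family of ceramide synthases in the ER, stood at 272, 272 and 249 CPM at 0 h and 84.5, 86.8 and 118 CPM at 6 h. LAG1 homolog 3 then had 90.9, 98.7 and 74.8 CPM at 12 h, 178, 201 and 221 CPM at 24 h and 207, 215 and 192 CPM at 48 h. The 0 h libraries were above all others, with the lowest values at 6 and 12 h (log2 fold change -1.45 ± 0.14, edgeR adjusted p = 3.4e-06 at 6 h, log2 fold change -1.58 ± 0.14, edgeR adjusted p = 8e-07 at 12 h). ER oxidoreductin-1 (NO07G02150), which oxidises protein disulfide-isomerase, averaged 113 ± 14.8 CPM at 12 h and 46.4 ± 3.85 CPM at 0 h (log2 fold change 1.28 ± 0.13, edgeR adjusted p = 2e-06). The autophagy kinase gene ATG1c (NO15G01130) averaged 102 ± 3.58 CPM at 12 h and 166 ± 0.341 CPM at 0 h (log2 fold change -0.69 ± 0.18, edgeR adjusted p = 0.0042). These last 2 genes were named after their values were seen. A member matched to a hypothetical protein (NO10G00950) averaged 9.65 ± 2.00 CPM at 6 h and 20.6 ± 0.286 CPM at 0 h (log2 fold change -1.09 ± 0.15, edgeR adjusted p = 7.5e-05) and was not called at 24 or 48 h.

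By FPKM, the level that allows for gene length, the 5 most abundant members over all libraries were HVA22-like k (339.8 FPKM), SAR1B (257), Sec61 gamma (257), YPT1 (223) and Sec61 alpha (168). By their names, all 5 act at the ER or between it and the Golgi. All 5 were called higher at 12 h than at 0 h, as 129 of the 287 tested members were.

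Genes outside the class that serve the same route were counted in the same fit, from lists made with these results known. Of 26 tested genes of protein folding and N-glycosylation in the ER, 17 were higher and 3 lower at 12 h. Against 12 h, 16 of them were lower at 24 h and 2 higher. Of 31 Golgi glycosyltransferases and sugar transporters outside the class, 20 were higher and 2 lower at 12 h. Of 10 subunits of the V-type proton ATPase, which acidifies the Golgi and vacuole, 6 and 2 were. These were 65.4% and 11.5% of the ER list, 64.5% and 6.45% of the Golgi list and 60% and 20% of the V-ATPase list, against 32.1% and 32.7% of all genes. The V-ATPase rises were small: the median log2 fold change at 12 h was 0.22, against 1.54 in the ER list and 1.32 in the Golgi list, and 0 subunits rose by at least 2-fold. At 6 h the V-ATPase list had 2 higher and 4 lower, the ER list 16 and 1 and the Golgi list 16 and 4. Genes outside the class whose names matched a pattern numbered 350, of which 325 were tested. At 12 h, 126 of these were higher and 87 lower, or 38.8% and 26.8%. Among them were 56 tested genes of a lipid transfer and membrane binding pattern, which is none of the 19 roles. Of those 56, 22 were higher and 17 lower. The patterns differed. Of 16 tested genes with the cargo receptor pattern, 7 were higher and 4 lower, with a median log2 fold change of -0.006. Inside the class, 21 of the 25 cargo receptors were higher and 1 lower, with a median of 1.43. Outside genes were listed by name patterns alone, while 80 members of the class had roles given by hand. The inside and outside lists were therefore not built alike. Of 18 genes with the SNARE pattern 13 were higher and 1 lower, and of 31 with the clathrin pattern 7 and 13.

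Some members could not be measured well. The 13 untested members had too few counts, among them SEC31, an ARF1 gene and VPS36. In 6 tested members, libraries of one time lay far apart, under 10 counts in one and over 100 in another, and their values rest on single libraries. The annotation places 28 members in 14 runs of neighbouring IDs with one match, where reads from copies or from a split gene model may be shared. Of 265 members with over 50 counts in every library, 24 had a ratio of count to FPKM that implied lengths over 1.5-fold apart between libraries. The part of these features in the results was not tested.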

How the data were processed

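RNA of the 15 libraries was sequenced, and the deposited tables hold a count and an FPKM per gene. The headers call the deposited values counts and they are whole numbers, but of 309 low values compared with their FPKM, 99.4% implied a read number in the unit below the count and 15.9% a whole one (within 0.05). The deposited values were therefore taken to be expected counts that had been rounded up. The FPKM values were deposited by the authors. Reads were aligned with HISAT2, per the submitters' processing notes. For the counting program, the genome version and the gene models, names were not given in the sources used here. No nuclear genome was used, and the 160 organelle genes of the reference table matched 0 IDs.

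Counts of all genes were fitted with edgeR 4.0.16 (R 4.3.3): filterByExpr with a minimum count of 10, TMM factors, 5 time means, quasi-likelihood F-tests, and Benjamini-Hochberg adjustment over 9321 genes at 0.05. Comparisons were the 4 with 0 h and the 3 of successive times. Alternatives used DESeq2 1.42.0, other scaling factors and filters, a replicate block, fewer libraries, and each library left out. The tests were tried on simulated data. Figures used Python 3.11.15 and matplotlib 3.10.9.

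Same-letter deviations correlated at -0.088 to 0.077, which shows little shared deviation but cannot show whether a letter marks one culture. No pair of libraries agreed within sampling noise (chi-square per degree of freedom 55.9 to 128). The intervals on counts of 0 use 3 counts and cover counting error only.

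The members, roles and partner lists were chosen with earlier results of these data known. Genes were named by rule: called members whose mean log2 CPM reached 3 and whose libraries do not overlap, taking the 6 largest rises and falls against 0 h and the 3 largest between successive times. For each role, the 3 smallest p across times, the largest rise and fall at 12 h and the highest FPKM were added, with all of a role of 4 or fewer, and the 5 highest FPKM of the class. Further genes are said to be named after their values were seen.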

Additional observations from a re-analysis of the deposited data

How the results depend on the processing

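The counts of members called kept within 1.5 times of the reported ones under DESeq2, DESeq2 size factors, upper-quartile factors, no filter, a filter of 50 counts in 3 libraries, and a fit of the 6 libraries compared. The same held in 2 alternatives added after the data were seen, which dropped genes with libraries far apart or kept 1 gene per run of neighbouring IDs. With each library left out in turn, the range was 100 to 110 higher against 36 to 42 lower at 6 h and 125 to 133 against 53 to 64 at 12 h. It was 80 to 93 against 33 to 49 at 24 h, and 92 to 107 against 34 to 47 at 48 h. Between successive times it was 92 to 104 higher against 45 to 57 lower from 6 h on to 12 h, 37 to 51 against 110 to 129 on to 24 h, and 19 to 41 against 8 to 23 on to 48 h. Members that differed across times numbered 210 to 234.

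Nothing in the labels says that a letter pairs libraries, and no pair of libraries with the same letter correlated over 0.1 (0 of 30, with 3 of 15 libraries closest to their own letter). With a replicate block, 107 members were higher against 38 lower at 6 h, 130 against 57 at 12 h, 88 against 38 at 24 h and 101 against 42 at 48 h. Successive times gave 101 against 54, 47 against 120 and 29 against 16 with the block, and 221 members differed across times. Of the 155 values of named members, the block ended the call of 2.

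For 4 uncalled values at 12 h the sign turned. NO01G02720 gave -0.0481 with upper-quartile factors and -0.0546 to 0.0656 with a library left out. NO02G04750 gave -0.0044 with those factors and -0.0502 to 0.176 with a library left out. NO05G00880 gave -0.297 to 0.0765 and NO07G04500 -0.718 to 0.152 with a library left out, the last value without library c of 0 h. The cause was not tested. With upper-quartile factors the median of all genes at 12 h was -0.10, against -0.04. Genes with few counts are limited by depth, at 0.114 to 0.180 CPM for 3 counts.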
